A study of Homo sapiens with 6 samples.

Results

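The BCL2 family genes were examined in RNA sequencing data of MDA-MB-231 cells, a human triple-negative breast cancer (TNBC) line. The 10 genes were BCL2, BCL2L1, MCL1, BCL2L11, BBC3, PMAIP1, BAX, BAK1, BID and BIK, found by their symbols among the 58735 genes of the deposited tables. The cells, labelled wild type, were treated for 24 h with vehicle (3 samples) or with SCH at 100 mg/l (3 samples), an aqueous, freeze-dried extract of the herb Salvia chinensis Benth. All 6 samples came from the same cell line at a single dose and time, so that the groups differed in the extract alone as far as the labels say. Summed over genes, the counts reached 20291379, 18714240 and 18334857 in the vehicle samples and 16836369, 17979434 and 18414924 in the SCH samples.

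The proteins of this family decide whether the outer membrane of the mitochondrion is breached, a step that releases cytochrome c and starts the caspase cascade of apoptosis. Anti-apoptotic members (BCL2, BCL-XL from BCL2L1, and MCL1) hold the effectors BAX and BAK in check. BH3-only members (BIM from BCL2L11, PUMA from BBC3, NOXA from PMAIP1, BID and BIK) bind the anti-apoptotic proteins and free or activate the effectors. NOXA binds MCL1 in preference to BCL-XL.

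The line was first checked against its markers. VIM, which encodes the mesenchymal filament vimentin, was at 1406 ± 23.1 normalized CPM (counts scaled to library size and TMM factor) after vehicle and at 957 ± 19.7 after SCH (SD, n = 3 each). CD44 was at 1000 ± 31.2 CPM after vehicle and at 1023 ± 23.6 after SCH. Against these levels, the hormone receptor genes ESR1 and PGR had at most 4 and 1 counts in any sample, and the epithelial cadherin gene CDH1 at most 6. Of the 5 line markers (VIM, CD44, AXL, CAV1 and EGFR), 4 were lowered after SCH, against 29.4% of all tested genes, and their summed level was between 4895 and 5003 CPM in the vehicle samples and between 3485 and 3531 CPM in the SCH samples. Of the other receptor and luminal markers, ERBB2 rose from 71.3 to 87.3 CPM and FOXA1 from 4.10 to 9.18 CPM, while GATA3 fell from 13.7 to 7.91 CPM and EPCAM fell by 0.52 on the log2 scale. The 5 leukocyte markers were low. PTPRC, the most abundant of them after vehicle, had 39, 37 and 34 counts there and 4, 9 and 3 after SCH (log2 fold change -2.75, SE 0.37, adjusted p = 8.80e-07). Its level was 1.99 CPM after vehicle and 0.290 CPM after SCH. CD14, the most abundant after SCH, had 8 to 21 counts in the 6 samples (log2 fold change 0.27, adjusted p = 0.544). CD3E had at most 1 count in any sample, LYZ had at most 3, and the list summed to 2.82, 3.34 and 2.36 CPM after vehicle and 1.26, 1.72 and 1.16 CPM after SCH. The part of these marker changes in the results below was not tested.

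Vehicle replicate 3 stood apart in genes of high and of low GC content. In the tenth of the tested genes with the highest GC content, its median deviation from the vehicle mean was -0.082 on the log2 scale, against 0.027 and 0.059 in the other vehicle samples. In the tenth with the lowest GC content it was 0.10, against -0.033 and -0.060. Among the SCH samples the largest such deviation in high-GC genes was 0.063, in SCH replicate 1. BBC3, whose longest transcript has 69.7% GC (above 99.7% of the tested genes), had the highest GC content of the members, and PMAIP1, at 37.2%, the lowest. The values of both are also given without that library.

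SCH was followed by changes in most of the family. Of the 10 members, all of which passed the filter on low counts, 5 were raised (MCL1, BCL2L11, BBC3, PMAIP1 and BIK), 4 were lowered (BCL2, BCL2L1, BAX and BID) and BAK1 did not pass the test. The test was edgeR's quasi-likelihood test over all 14736 tested genes, with an adjusted p under 0.05 as the threshold. The background was high, since 58.7% of all tested genes passed it, 29.3% as raised and 29.4% as lowered. Raised genes were thus 49.9% of the called genes, and 62.6% of them with library size alone as the scaling. The median absolute log2 fold change of the members was 0.40, against 0.31 for all tested genes. In 9 of the 10 members the SCH and vehicle samples did not overlap, as was the case in 62.4% of all tested genes. BBC3 and BIK, 2 of the 10 members, were called and moved by 1 or more on the log2 scale, against 8.77% of all tested genes. Without vehicle replicate 3, BBC3 was at 0.92 and BIK alone reached 1, and in limma on log2(FPKM + 1), a scale that understates changes of low genes, neither did (0.90 and 0.95). No test of the members as a list was made. In whole cultures, fewer cells that hold a transcript and less of it per cell cannot be told apart. The samples are described as biological repeats, without a statement that they were separate cultures, so that the p-values measure the spread between these samples only.

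**Figure D1:**
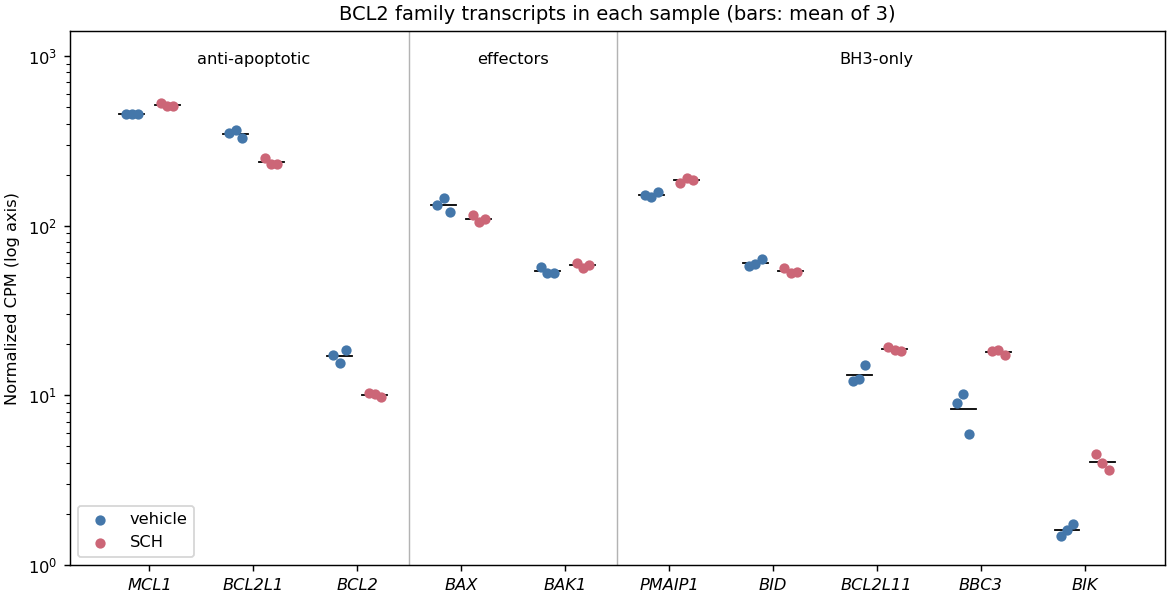
Normalized CPM (log axis) of the 10 members in each of the 3 vehicle (blue) and 3 SCH (red) samples, ordered by role, with a black bar at each mean. The groups are apart for every member except BAK1, and BBC3 in vehicle replicate 3 lies at 5.90, below the other vehicle samples at 8.97 and 10.2.

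Within the anti-apoptotic genes the direction was split. BCL2L1 (ENSG00000171552, chromosome 20 of GRCh38 from 31664452 to 31723989, minus strand) encodes BCL-XL as its main product. It had 350, 364 and 331 CPM in the vehicle samples and 250, 232 and 232 CPM in the SCH samples. Each SCH sample was thus below each vehicle sample, and the log2 fold change was -0.55 (standard error, SE, 0.050, adjusted p = 2.22e-09), or 0.683 times the vehicle level. A shorter product of this gene favours apoptosis, and counts per gene do not separate the isoforms. Exons of ABALON, an antisense gene, cover 43.0% of the exonic bases of BCL2L1. The strand setting of the counting is not given in the sources used here, and if reads of both strands were counted alike, those in the shared bases cannot be assigned to either gene. ABALON itself had 145, 161 and 149 counts after vehicle and 205, 174 and 215 after SCH (log2 fold change 0.39, SE 0.12, adjusted p = 0.00875).

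MCL1 (ENSG00000143384, chromosome 1 from 150574551 to 150579738, minus strand) encodes a protein that is turned over quickly. Its level was 452, 458 and 456 CPM after vehicle and 531, 505 and 510 CPM after SCH. The rise was small but larger than the spread, at 0.18 on the log2 scale (SE 0.045, adjusted p = 0.00158), or 1.13-fold. With library size alone as the scaling it was 0.28 and also passed the threshold. BCL2 (ENSG00000171791, chromosome 18 from 63123346 to 63320128, minus strand), the founding gene of the family, spans 196.8 kb, the longest span among the members. It had 17.2, 15.5 and 18.6 CPM after vehicle and 10.3, 10.2 and 9.78 CPM after SCH. All SCH samples lay below all vehicle samples, with a log2 fold change of -0.76 (SE 0.10, adjusted p = 7.05e-07). This was the largest fall among the 10 members, though not in limma on log2(FPKM + 1), where BCL2 was at -0.39 and BCL2L1 at -0.54.

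The other anti-apoptotic genes of the family were also split. BCL2A1, an NF-kB target that encodes A1, had 26, 20 and 16 counts after vehicle and 117, 118 and 136 after SCH. At 1.12 ± 0.217 against 6.73 ± 0.409 CPM (SD, n = 3 each), its log2 fold change was 2.58 (SE 0.20, adjusted p = 9.01e-11), the largest in absolute size among all family genes tested and the 70th largest of all tested genes. BCL2L2, which encodes BCL-W, fell from 29.8 ± 1.27 to 19.1 ± 0.959 CPM (SD, n = 3 per group), which was a log2 fold change of -0.65 (SE 0.078, adjusted p = 2.08e-07). Exons of other genes cover 24.3% of the exonic bases of BCL2L2, among them those of PPP1R3E on the other strand, whose own log2 fold change was -0.56. BCL2L10 had no counts in 5 samples and 3 counts in vehicle replicate 3, and was not tested.

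Levels were compared between genes per length, as FPKM. MCL1 and BCL2L1 stood at 101 ± 0.649 and 102 ± 4.98 FPKM after vehicle and BCL2 at 1.40 ± 0.123 FPKM (SD, n = 3 each). The first 2 thus held nearly the whole of the anti-apoptotic transcripts, and BCL2 little of them. Of the summed FPKM of BCL2, BCL2L1, MCL1, BCL2L2, BCL2A1 and BCL2L10, BCL2L1 made up 48.3%, 49.0% and 46.6% in the vehicle samples and 36.2%, 35.6% and 35.2% in the SCH samples. The share of MCL1 was 47.4%, 46.7% and 48.8% after vehicle and 58.4%, 58.7% and 58.7% after SCH. The MCL1 to BCL2L1 ratio accordingly went from 0.993 ± 0.0476 to 1.64 ± 0.0273 (SD, n = 3 each), from near parity to an excess of MCL1 transcripts in every SCH sample. BCL2A1 took up 0.467% ± 0.0876 of the sum after vehicle and 3.07% ± 0.197 after SCH. The sum itself was 212 ± 5.10 FPKM after vehicle and 196 ± 6.38 FPKM after SCH (SD, n = 3 each). The deposited FPKM are scaled differently from total counts in the groups, and rescaled to total counts, an alternative chosen after seeing the data, the sums were 210, 215 and 208 after vehicle and 216, 204 and 206 after SCH, so that the groups overlapped. Shares and ratios within a sample do not depend on this scaling. The overlap with ABALON bears on the level of BCL2L1 in these sums.

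**Figure D2:**
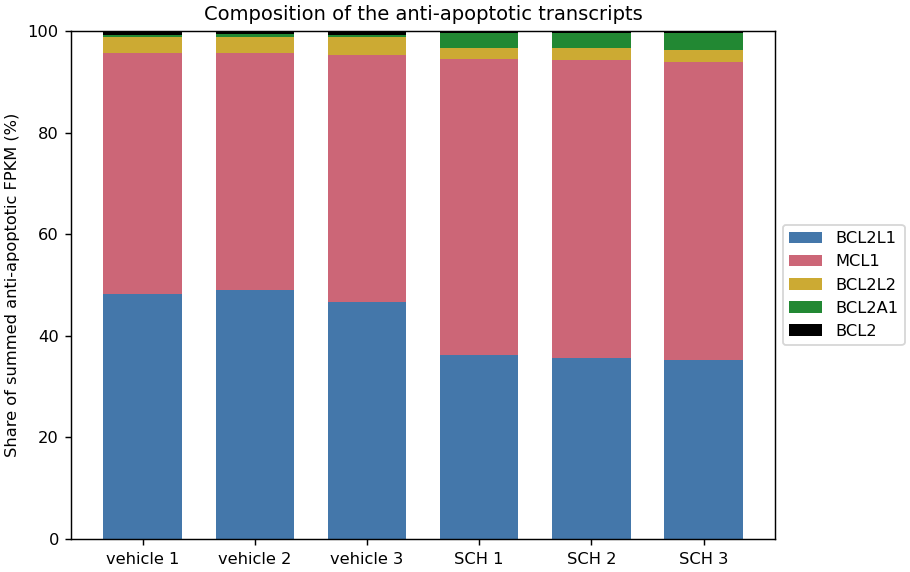
Share (%) of each anti-apoptotic gene in their summed FPKM, as stacked bars for each vehicle and SCH sample. BCL2L1 falls from 46.6% or more in each vehicle sample to 36.2% or less in each SCH sample, MCL1 rises to at least 58.4%, and BCL2 stays below 1% throughout.

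The effectors moved little. BAX (ENSG00000087088, chromosome 19 from 48954815 to 48961798, plus strand) forms pores in the outer mitochondrial membrane. It had 133, 146 and 120 CPM in the vehicle samples and 115, 105 and 110 CPM in the SCH samples. The SCH samples were all lower, though the closest pair was 5 CPM apart, and the log2 fold change was -0.28 (SE 0.062, adjusted p = 5.74e-04). For BAX it was -0.17 with library size alone as the scaling, and also passed the threshold. BAK1 (ENSG00000030110, chromosome 6 from 33572547 to 33580293, minus strand), whose protein resides in the same membrane, had 57.1, 52.6 and 52.5 CPM after vehicle and 59.9, 56.3 and 59.0 CPM after SCH. The groups overlapped, and its log2 fold change of 0.11 (SE 0.061, adjusted p = 0.129) had a 95% interval from -0.017 to 0.24. With library size alone as the scaling, in place of TMM factors, BAK1 passed the threshold as raised (0.21). BOK, the third effector gene, fell from 51.5 ± 3.71 to 43.3 ± 2.25 CPM (SD, n = 3 per group), which was a log2 fold change of -0.25 (SE 0.068, adjusted p = 0.00287), and did not pass with library size alone.

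The BH3-only members rose, except BID. BIK (ENSG00000100290, chromosome 22 from 43110748 to 43129712, plus strand), whose protein sits at the endoplasmic reticulum, had 29, 29 and 31 counts in the vehicle samples and 79, 74 and 69 in the SCH samples. At 1.49, 1.62 and 1.74 CPM against 4.53, 3.97 and 3.63 CPM, it showed the largest change of the 10 members, with a log2 fold change of 1.32 (SE 0.21, adjusted p = 7.78e-06). BBC3 (ENSG00000105327, chromosome 19 from 47220822 to 47232766, minus strand) encodes PUMA, which binds all the anti-apoptotic proteins. It had 8.97, 10.2 and 5.90 CPM after vehicle and 18.3, 18.5 and 17.3 CPM after SCH. The SCH samples were close to each other and well above the vehicle samples, which were spread more widely. The log2 fold change was 1.11 (SE 0.13, adjusted p = 1.26e-07), and without vehicle replicate 3, the library that was low in GC-rich genes, it was 0.92 (adjusted p = 1.57e-07).

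BCL2L11 (ENSG00000153094, chromosome 2 from 111119378 to 111168447, plus strand) encodes BIM, which is held down by ERK signaling and induced by FOXO factors. It had 12.1, 12.5 and 15.1 CPM after vehicle and 19.3, 18.6 and 18.4 CPM after SCH. With the groups apart, its log2 fold change was 0.50 (SE 0.097, adjusted p = 1.05e-04). Exons of MIR4435-2HG on the other strand cover 10.9% of its exonic bases, and that gene moved the opposite way (log2 fold change -0.45). PMAIP1 (ENSG00000141682, chromosome 18 from 59899948 to 59904306, plus strand), the gene of NOXA, was the most abundant of the BH3-only members. Its level was 151, 147 and 157 CPM after vehicle and 179, 191 and 186 CPM after SCH. The log2 fold change of 0.29 (SE 0.050, adjusted p = 3.26e-05) corresponds to 1.22-fold, and without vehicle replicate 3 it was 0.31 (adjusted p = 5.92e-06). BID (ENSG00000015475, chromosome 22 from 17734138 to 17774770, minus strand) is cleaved by caspase-8 and so ties death receptors to the mitochondrion. It had 57.7, 59.4 and 64.0 CPM after vehicle and 56.4, 52.5 and 53.7 CPM after SCH. Although the groups did not overlap, the fall was small (log2 fold change -0.15, SE 0.062, adjusted p = 0.0353) and passed the threshold in 6 of the 15 alternative analyses only.

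In FPKM, PMAIP1 stood at 65.6 ± 2.17 after vehicle and 80.4 ± 2.51 after SCH, whereas BBC3 stood at 2.54 ± 0.673 and 5.51 ± 0.212 and BIK at 1.64 ± 0.129 and 4.12 ± 0.479 (SD, n = 3 each). The members with the largest fold changes were thus those with low levels. The 5 BH3-only members summed to between 83.1 and 87.6 FPKM in the vehicle samples and between 103 and 107 FPKM in the SCH samples, and were apart in the same direction when rescaled to total counts. Most of that sum was PMAIP1. Of the BH3-only genes outside the 10, BAD had a log2 fold change of -0.063 (SE 0.083, adjusted p = 0.533) and BMF one of 0.23 (SE 0.28, adjusted p = 0.497), with 95% intervals from -0.23 to 0.11 and from -0.34 to 0.80. Exons of GPR137 on the other strand, which rose by 0.76, cover 23.7% of the exonic bases of BAD. HRK had at most 1 count in any sample.

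**Figure D3:**
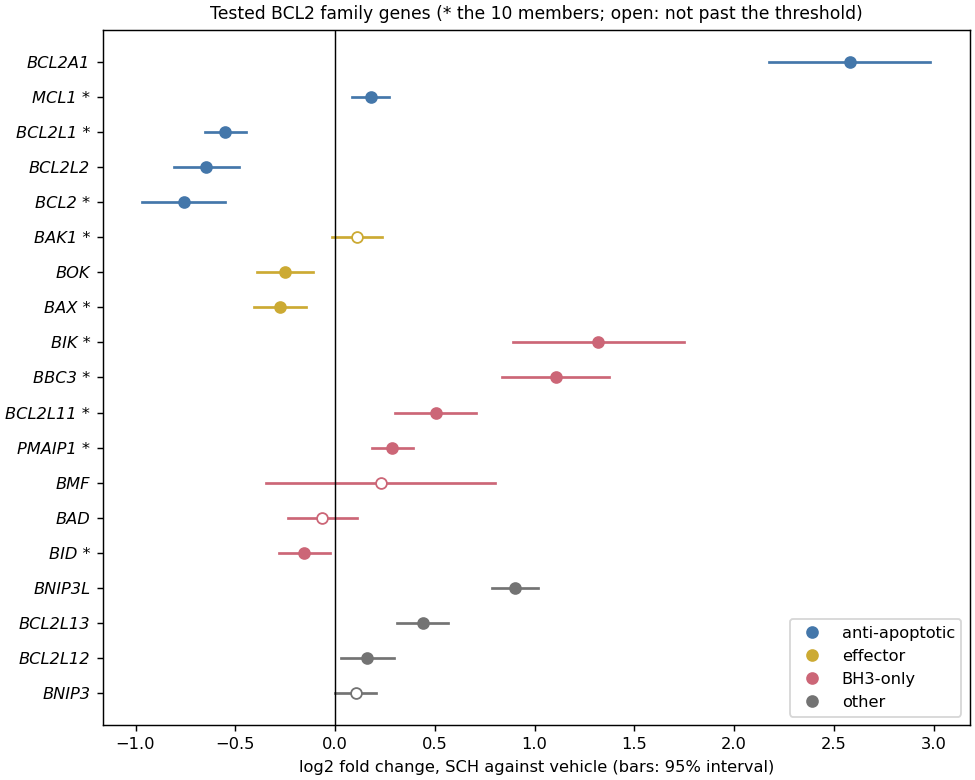
Log2 fold change of SCH against vehicle (x axis) with its 95% interval for the 19 tested BCL2 family genes, colored by role, with the 10 members starred and open circles for genes that did not pass the threshold. BCL2A1 lies farthest to the right at 2.58 and BCL2 farthest to the left at -0.76, and 4 of the 5 BH3-only members lie to the right of 0.

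Ratios within a sample set binding partners side by side, as a description and without a test. The FPKM ratio of BBC3 to BCL2L1 was 0.0248 ± 0.00553 after vehicle and 0.0790 ± 0.00343 after SCH (SD, n = 3 each). PUMA transcripts thus remained far fewer than those of BCL2L1 in both groups. BCL2L11 to BCL2 went from 1.37 ± 0.107 to 3.28 ± 0.0544, and all SCH samples were above all vehicle samples. BAX to BCL2, a ratio often read as a balance of death and survival, was 35.1, 42.8 and 29.4 after vehicle and 50.7, 46.8 and 51.1 after SCH. That shift came with a fall of both genes, the larger in BCL2. PMAIP1 to MCL1, where both genes rose, was 0.652, 0.628 and 0.674 after vehicle and 0.658, 0.739 and 0.711 after SCH, and the groups overlapped.

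The promoters of the raised BH3-only members that have one in the reference table are shown because these genes were called in the same direction. RefSeq promoter windows (GRCh38.p14, 250 bases before to 50 after a start) were at hand for 8 of the 10 members, in 13 entries, and not for MCL1 and BIK. They were searched on both strands for TATAAA, the FOXO motif GTAAACA, the AP-1 motif TGANTCA, the CRE motif TGACGTCA, the E2F motifs TTTCCCGC and TTTGGCGC, and the consensus of NF-kB. The stretches below run 5′ to 3′ on the strand of the gene, end where the first exon of the gene in GENCODE 29 begins or at the RefSeq start, and carry motif matches in capitals, GTAAACA in BCL2L11 (chr2:111120664-111120913, plus strand) and TGAGTCA in BBC3 (chr19:47232767-47232917, minus strand), with no match in PMAIP1 (chr18:59899746-59899947, plus strand).
BCL2L11: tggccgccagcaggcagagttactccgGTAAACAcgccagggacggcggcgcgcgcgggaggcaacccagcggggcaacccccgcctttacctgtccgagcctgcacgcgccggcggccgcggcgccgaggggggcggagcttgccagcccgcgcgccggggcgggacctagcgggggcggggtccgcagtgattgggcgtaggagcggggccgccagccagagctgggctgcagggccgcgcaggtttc
BBC3: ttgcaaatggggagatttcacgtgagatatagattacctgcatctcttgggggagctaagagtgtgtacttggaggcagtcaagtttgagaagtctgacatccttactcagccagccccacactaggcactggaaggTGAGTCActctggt
PMAIP1: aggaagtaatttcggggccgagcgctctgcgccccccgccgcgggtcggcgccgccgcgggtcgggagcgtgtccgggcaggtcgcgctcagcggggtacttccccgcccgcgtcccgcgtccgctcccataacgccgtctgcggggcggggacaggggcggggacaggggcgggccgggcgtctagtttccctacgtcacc

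The FOXO match of BCL2L11 lies 223 to 217 bases before the RefSeq start, and 3.42% of all 35116 promoter windows hold this motif. That start and the printed stretch lie inside the gene as annotated in GENCODE 29, which begins at 111119378. The match is thus not upstream of the whole gene. In BBC3 the AP-1 match lies 113 to 107 bases before the start, and 7.71% of all windows hold that motif. BCL2L1 had 2 matches to TATAAA in the window of its upstream start (11.5% of all windows have at least 1). No match of these motifs was found in the windows of BCL2, BAX or BID, which says only that these letters are not there. None of these matches was tested for binding.

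Factors known to act on promoters of this family were followed in a list of 14 genes, of which 12 were tested, 7 raised and 3 lowered. Most altered was ATF3, a stress-induced factor of the ATF family, which rose from 10.2 ± 0.652 to 30.8 ± 0.996 CPM (SD, n = 3 per group), which was a log2 fold change of 1.60 (SE 0.087, adjusted p = 2.97e-13). FOXO4 (0.93) and FOXO1 (0.74), which act on BCL2L11, rose on the log2 scale from low levels of 2.62 and 5.12 CPM. FOXO3, the most abundant of the 3 FOXO genes in the list, rose less, from 56.7 to 63.8 CPM (log2 fold change 0.17, SE 0.061, adjusted p = 0.0213). MYC fell by 0.69 on the log2 scale, from 242 ± 3.37 to 150 ± 14.5 CPM (SD, n = 3 each). Unlike ATF3, the more abundant ATF4 fell from 581 to 395 CPM (log2 fold change -0.56, SE 0.045, adjusted p = 2.73e-10). JUN (0.049) and E2F1 (-0.039) did not pass the test.

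Genes that act after the outer membrane is permeabilized were counted in a list of 14, all of them tested, with 7 raised and 3 lowered. CASP9, the initiator caspase of this route, rose from 8.91 ± 0.870 to 18.7 ± 0.707 CPM (SD, n = 3 per group), which was a log2 fold change of 1.07 (SE 0.10, adjusted p = 3.48e-09). APAF1, the scaffold on which caspase-9 is activated, rose by 0.61 (SE 0.074, adjusted p = 1.96e-07) and HTRA2, a protease released from mitochondria, by 0.43 (SE 0.080, adjusted p = 6.69e-05). VDAC1, a channel of the outer membrane, fell from 456 ± 13.2 to 335 ± 5.95 CPM (SD, n = 3 per group), which was a log2 fold change of -0.44 (SE 0.046, adjusted p = 1.64e-08). The changed shares of these lists, 71.4% here and 83.3% among the factors, stand beside 58.7% of all tested genes. XIAP, which inhibits caspases, had a log2 fold change of 0.052 (SE 0.067, adjusted p = 0.529). DIABLO, which encodes the XIAP antagonist SMAC, is the symbol of 2 overlapping gene identifiers in the tables, so that its reads could not be assigned to either with certainty. The first had 51 to 66 counts per sample and a log2 fold change of -0.022 (adjusted p = 0.931).

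Partners and turnover factors of the family proteins formed the last list, of 13 genes with 12 tested, 6 raised and 3 lowered (75.0% called, against 58.7% of all tested genes). BAG1, a co-chaperone that binds BCL2, fell from 88.5 ± 3.81 to 61.8 ± 3.39 CPM (SD, n = 3 per group), which was a log2 fold change of -0.52 (SE 0.059, adjusted p = 8.04e-08). DYNLL2, a dynein light chain that holds BMF, rose by 0.37 (SE 0.054, adjusted p = 2.98e-06), MARCHF5, a mitochondrial ubiquitin ligase, by 0.35 (SE 0.059, adjusted p = 2.60e-05), and TPT1, whose protein stabilizes MCL1, fell by 0.32 (SE 0.047, adjusted p = 3.21e-06). Among the ligases of MCL1, HUWE1 (0.092) and FBXW7 (-0.033) did not pass the test, with 95% intervals from -0.017 to 0.20 and from -0.21 to 0.14. BTRC, a ligase subunit, was raised by 0.21 (SE 0.082, adjusted p = 0.0352) with overlapping groups, and TRIM17 was too low to be tested. USP9X, which removes ubiquitin from MCL1, rose by 0.16 (SE 0.054, adjusted p = 0.0137), while USP13, which does the same, fell by 0.29 (SE 0.066, adjusted p = 5.58e-04).

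**Figure D4:**
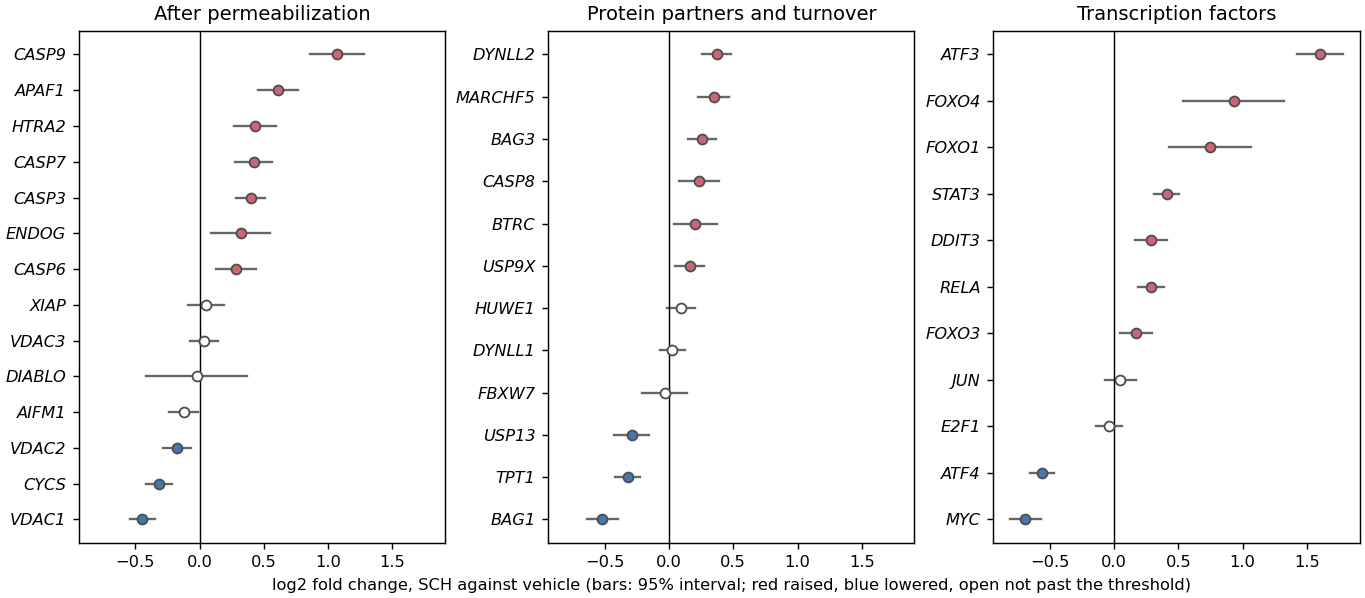
Log2 fold change of SCH against vehicle (x axis) with its 95% interval for the tested genes of 3 lists (1 factor is not shown), in red where raised, in blue where lowered and open where not past the threshold. CASP9 at 1.07 and ATF3 at 1.60 lie farthest to the right in their panels, and BAG1 at -0.52 and MYC at -0.69 farthest to the left.

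The remaining BCL2 family genes included those tied to the removal of mitochondria. BNIP3L, a mitophagy receptor also called NIX, had 57.3, 59.1 and 63.2 CPM after vehicle and 111, 112 and 112 CPM after SCH. The SCH samples were nearly identical, and the log2 fold change was 0.90 (SE 0.056, adjusted p = 2.86e-12). Its relative BNIP3 had one of 0.10 (SE 0.049, adjusted p = 0.0756), with a 95% interval from 0.0016 to 0.21, and passed with library size alone (0.21, adjusted p = 9.69e-04) and without vehicle replicate 3 or SCH replicate 1 (0.12 and 0.14, adjusted p = 0.0308 and 0.0239). BCL2L13, another mitochondrial member, rose from 43.3 ± 1.01 to 58.7 ± 2.28 CPM (SD, n = 3 each), by 0.44 on the log2 scale (SE 0.062, adjusted p = 1.80e-06). BCL2L12 (0.16, adjusted p = 0.0348) shares 33.1% of its exonic bases with exons of IRF3 on the other strand, which itself rose by 0.24 (adjusted p = 0.00127), and without vehicle replicate 3, SCH replicate 1 or SCH replicate 3 it did not pass (0.081, 0.16 and 0.16, adjusted p = 0.182, 0.0676 and 0.0756), nor with upper quartile scaling (0.13, adjusted p = 0.0863) or in limma on log2(FPKM + 1) and log2(FPKM + 0.1) (0.17 in both, adjusted p = 0.0694 and 0.0672). BCL2L14 and BCL2L15 had at most 5 and 6 counts in any sample. Over the 13 family genes outside the 10, of which 9 were tested, 4 were raised and 2 lowered (66.7% called, against 58.7% of all tested genes).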

How the data were processed

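The submitters' processing notes name HISAT2 2.0.5, featureCounts 1.5.0-p3, DESeq2 1.20.0, CASAVA 1.8 and GRCh38, without roles. Per gene, the authors deposited unnormalized raw counts. In separate tables for each sample the authors deposited FPKM values, which scale the counts by gene length and depth. All 58735 gene identifiers, with their starts and ends, are in GENCODE 29.

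Counts were normalized with TMM in edgeR 4.0.16 (R 4.3.3), filtered with filterByExpr and compared between SCH and vehicle with the quasi-likelihood test, with no covariate and with p-values adjusted over 14736 genes by the Benjamini-Hochberg method. The SE of each log2 fold change was derived from its absolute size and the F statistic of the test. The 95% intervals use this SE and the fit's degrees of freedom. Exact two-sided permutation tests of single genes cannot go below 0.1 with 3 samples against 3, the value reached by each of the 9 members whose groups were apart. The fit was tested on simulated data. The replicate numbers were not used to pair the samples in the main fit.

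The members, lists and tests were chosen with earlier results of these data known. Named were all family genes and markers, and from each other list the 4 changed genes with the largest change, with others added after their values were seen. MARCHF5, whose symbol had become a date in the tables, was matched by identifier. Protein sequences were not analysed here, and some list genes and a motif are counted or searched but not reported here. Alternatives were other scalings and filters, DESeq2 1.42.0, limma 3.58.1 on log2(FPKM + 1) and log2(FPKM + 0.1), a replicate block, a log2 limit of 1 and each sample left out. Figures were drawn with matplotlib 3.10.9.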

Additional observations from a re-analysis of the deposited data

How the results depend on the processing

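Of the 10 members, 8 had the same sign and the same call in all 15 alternative fits. The exceptions were BAK1, raised with library size only (0.21, adjusted p = 0.00453 from edgeR), and BID, which lost its call in 9, with log2 fold changes there from -0.16 to -0.052. BID was not called without vehicle replicate 2, vehicle replicate 3, SCH replicate 2 or SCH replicate 3 (-0.16, -0.11, -0.12 and -0.14, adjusted p = 0.0567, 0.120, 0.172 and 0.123), nor with library size only, no filter, DESeq2 or limma on FPKM at either pseudocount. Of the 9 other tested family genes, 5 did so, the exceptions being BOK, BAD, BCL2L12 and BNIP3. BAD changed sign with library size only (0.040) and without vehicle replicate 2 (0.0052), though it was called only without vehicle replicate 3 (-0.17, adjusted p = 0.0297). With library size only, 62.6% of the called genes were raised (5519 against 3295 lowered) in place of 49.9%, and 1 of the other family genes was lowered in place of 2. Under a log2 limit of 1, by construction, 1292 genes were changed in place of 8650. Of the members 2 were raised (BBC3 and BIK, of which BBC3 was at 0.92 without vehicle replicate 3) and 0 lowered, of the other family genes 1 and 0, of the list after permeabilization 1 and 0, of the factors 1 and 0, and of the partners 0 and 0. With only BCL2, BCL2L1 and MCL1 in the sum, BCL2L1 held 49.8% after vehicle and 37.7% after SCH, MCL1 49.5% and 61.9%, and BCL2 0.451% after SCH. The replicate number as a block gave 8705 changed genes and called the same members (5 raised, 4 lowered). Same-numbered samples had correlations of their deviations of 0.042, -0.022 and 0.018, so that no shared deviation was seen. Whether they were cultured or prepared together cannot be told from these values. Genes that did not pass the filter on low counts have no fold change in the main fit, among them BCL2L14 and BCL2L15 with at most 5 and 6 counts. BIK, at 29 to 31 counts after vehicle, is the member with the fewest counts.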

Other observations

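Among all tested genes, the 3 whose profile over the 6 samples was closest to that of BIK, the member with the largest change, were RNF103, TRIM62 and CXCL16. Their root mean square differences from BIK, in log2 normalized CPM centered on each gene's mean, were 0.071, 0.089 and 0.092. Their own log2 fold changes were 1.23, 1.26 and 1.39, at mean levels of 28.1, 16.6 and 2.40 CPM. With only 2 conditions this measure mainly picks out genes with a change of like size.

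BAK1P1, a pseudogene of BAK1, had 11 to 25 counts in the vehicle samples and 16 to 26 in the SCH samples, against 934 or more for BAK1 in every sample.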
